A study of Mus musculus with 2 samples.

Results

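The nuclear factor I (NFI) family of the mouse has 4 genes, Nfia, Nfib, Nfic and Nfix, and all 4 are described here, out of 21938 protein-coding genes of the GENCODE annotation. They were taken by name, and their DNase I peaks and footprints were read within 1 kb of every annotated transcription start and over each gene with 50 kb on either side. DNase-seq marks accessible chromatin by the DNA ends that DNase I releases from nuclei, and a footprint is a short stretch inside it where cutting is low. The data are 2 libraries of 1 group, the gastrocnemius muscle of male B6CASTF1/J mice aged 25 days, an F1 hybrid, so every measurement is a comparison among genes and between these libraries and not between conditions. The labels call them biological replicates 1 and 2 and number 2 different males, while both carry 1 donor entry. Mean ± SD over n = 2 therefore describes the spread of these libraries. All positions are on mm10.

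NFI proteins are transcription factors that bind DNA as dimers, through a shared amino-terminal domain, at the palindrome TTGGC, 5 bases of any kind, GCCAA. One arm of it alone is bound more weakly. In skeletal muscle Nfix is best known, as the factor that turns the embryonic programme of myoblasts into the fetal one. It activates the creatine kinase and beta-enolase genes there and represses slow myosin. Nfia and Nfib are known from glia, brain and lung, Nfia also from brown fat, and Nfic from the growth of tooth roots.

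Replicate 1 held 97499 peaks and 243784 footprints and replicate 2 held 61664 peaks and 171389 footprints. The signal of a peak behaved as tags per 1000000 tags of its library, which puts the depth at 169 M and 117 M tags. The median peak held 114 tags in each library, and the median signal was 0.674 and 0.974. As a check of the tissue, 7 of 7 muscle markers had a promoter peak in both libraries, as did 3 of 3 markers of endothelium and 3 of 3 of fibro-adipogenic progenitors, whereas 0 of 3 leukocyte and 0 of 3 hepatocyte markers had one in either. The summed promoter signal was 23.9 and 19.9 for the 7 muscle genes, 3.22 and 3.15 for the 3 of endothelium, and 8.23 and 8.13 for the 3 of the progenitors. The lists differ in length, so these sums do not rank the cell types. Of Schwann cell markers, Prx had a promoter signal of 7.49 and 6.74 and Sox10 had no peak. Promoter peaks were thus called at markers of several cell types, which alone does not show that those cells are present. In bulk nuclei a site open in fewer cells and a site less open in each cell cannot be told apart. What part other cell types have in the NFI peaks was not tested.

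Each of the 4 genes had a promoter peak in both libraries, where 63% of protein-coding genes did. The strongest start peak belonged to Nfia, with a signal of 8.77 in replicate 1 and 5.22 in replicate 2 (6.99 ± 2.51, SD, n = 2). Nfib followed with 6.03 and 5.59 (5.81 ± 0.310). Nfic had 3.80 and 3.71 (3.75 ± 0.0629). Nfix, the member with the best known role in muscle, had the lowest start signal by its strongest peak, 2.73 and 2.56 (2.65 ± 0.120), which came from different peaks in the 2 libraries, an internal one in replicate 1 and one near the 5′ end in replicate 2. The strongest Nfix start peak matched between the libraries had 2.14 and 2.42 (2.28 ± 0.196). Nfia and Nfib overlapped in signal. Within 1 kb of a start the order Nfib, Nfic, Nfix held in both libraries, with gaps larger than the difference between them. Just outside that window, 1153 bp from a start, a Nfix peak at chr8:84709261 had 3.03 and 4.73. The order of Nfic and Nfix in replicate 2 thus depends on the window. Among the 14582 and 14084 genes with a promoter peak, the signals within 1 kb stood at percentiles 90.1 and 74.1 for Nfia, 73.4 and 77.9 for Nfib, 52.4 and 54.2 for Nfic, and 40.4 and 37.4 for Nfix. The median promoter of all such genes had 3.57 and 3.43, so Nfix lay below it in both libraries and Nfic just above it.

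Over the family 25 of 31 annotated starts had a peak within 1 kb in both libraries, against 51.7% of all starts of protein-coding genes. Several starts lie close to each other and share 1 peak, so these counts are not independent. Nfia (ENSMUSG00000028565.18, chr4:97772734-98118874, plus strand) had a peak at 7 of 8 starts. Its strongest one lay at the 5′-most start, that of transcript Nfia-208, with the peak centre 443 bp upstream in replicate 1. Further downstream, 5 starts at chr4:97777608 to 97777834 shared a chain of weaker peaks whose highest signal was 1.45 in replicate 1 and 1.74 in replicate 2. Those starts carried 16 to 18 footprints in replicate 1 and 15 in replicate 2, compared with 9 and 2 at the stronger upstream start. These counts are within 1 kb, where the downstream starts also had more peaks, 5 and 4, compared with 2 and 1 upstream. They therefore do not compare single peaks, and the strongest peak itself held 5 and 2 footprints. The start of Nfia-206 was weak in signal, at 0.586 and 0.846, with 2 and 1 peaks and 6 and 3 footprints. That of Nfia-207 had 1 peak of 0.455 in replicate 1, none in replicate 2, and no footprints. A RefSeq start of Nfia, 190.8 kb upstream of the GENCODE 5′ end at chr4:97581943, had 0 peaks and 0 footprints within 1 kb in either library.

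Nfib (ENSMUSG00000008575.17, chr4:82290173-82705750, minus strand) had its start peaks in the middle of its annotated span. Its 6 clustered starts at chr4:82505308 to 82505779 shared the peak of 6.03 and 5.59, and 10 of its 12 annotated transcripts begin there. The 5′-most annotated start, that of Nfib-212 at chr4:82705750, had no peak in either library. The start of Nfib-211 at chr4:82499316 had one in replicate 2 only, of 0.914. Nfib is therefore the member whose annotated 5′ end and accessible start are farthest apart, 199349 bp by the centre of the peak. The reference bases of the middle of the shared start peak, chr4:82506281-82506540, are shown because they held 8 footprints in each library, and the capitals mark the 81 bases that lay in footprints of both. A footprint of both libraries touches a CCACCC match there, the short form of sites for the SP and KLF zinc finger factors, without covering it.
Nfib start: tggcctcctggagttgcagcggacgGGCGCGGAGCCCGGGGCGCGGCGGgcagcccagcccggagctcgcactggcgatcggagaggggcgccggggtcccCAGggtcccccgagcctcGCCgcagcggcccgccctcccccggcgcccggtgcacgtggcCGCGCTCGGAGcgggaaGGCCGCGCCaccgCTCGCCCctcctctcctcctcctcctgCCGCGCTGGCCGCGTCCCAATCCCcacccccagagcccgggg

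Nfic (ENSMUSG00000055053.18, chr10:81396186-81455635, minus strand) had a peak at 5 of 7 starts in both libraries, and again not at the ends. The highest, 3.80 and 3.71, stood at the start of Nfic-204 at chr10:81431005. A group of 3 starts at chr10:81427114 to 81427187 had 1.82 and 2.38, and the start of Nfic-205 at chr10:81407641 had 2.29 and 1.59. The start of Nfic-206 had no peak in either library, and the 5′-most one, Nfic-207 at chr10:81455635, had only a weak peak of 0.333 in replicate 2.

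Nfix (ENSMUSG00000001911.16, chr8:84699876-84800344, minus strand) had a peak at 7 of 8 starts in both libraries, with no single dominant one. The 3 starts at its 5′ end, chr8:84800024 to 84800344, had 2.14 in replicate 1 and 2.56 in replicate 2. An internal pair, Nfix-203 and Nfix-204 at chr8:84774369 and 84773396, had 2.73 in replicate 1 and 1.84 and 1.79 in replicate 2. The internal pair was the higher in replicate 1 and the 5′ end in replicate 2, so their order was not resolved. Starts near the 3′ end of the gene, Nfix-207 and Nfix-208, had 1.31 and 1.33. Of 4 RefSeq starts of Nfix, all in the stretch between chr8:84772875 and 84780082, 3 had a peak in both libraries and the farthest upstream had 0.473 in replicate 1 and none in replicate 2.

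**Figure D1:**
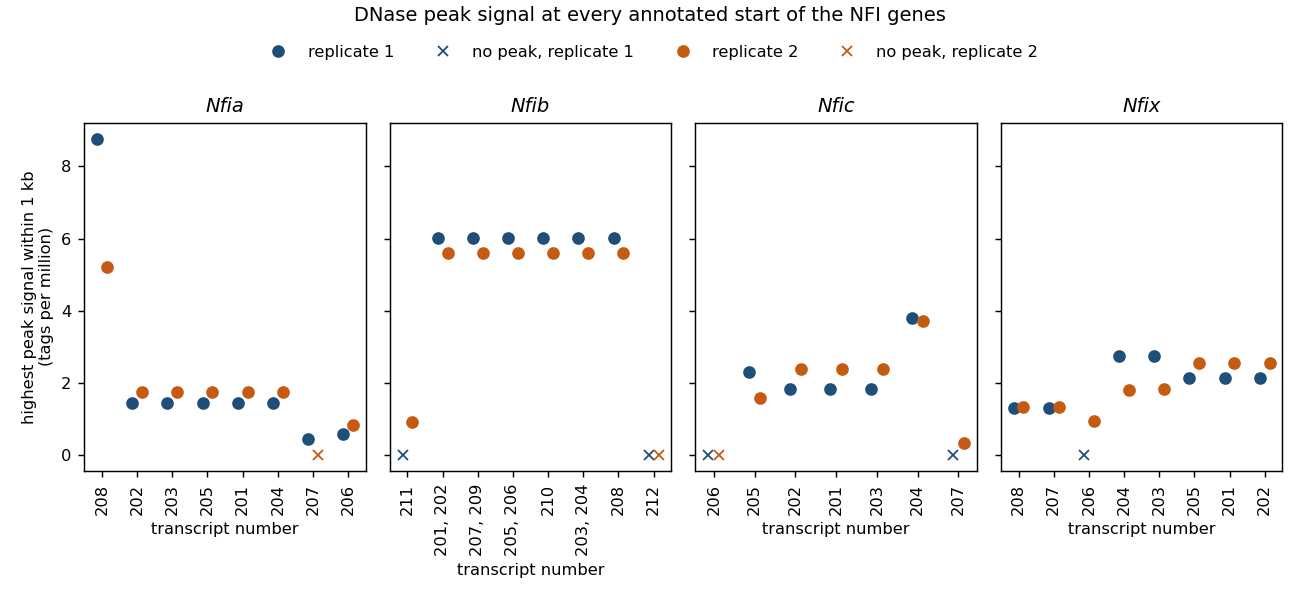
Highest peak signal (scaled tags, vertical axis) within 1 kb of each annotated start of the 4 genes, one point per library, with crosses where no peak was called; starts are ordered by position and named by transcript number. Nfia has 1 strong start and Nfib 6 starts that share a peak, while the Nfix starts lie between 0.957 and 2.73 where a peak was called.

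By peaks over the whole regions, those at starts included, the order of the genes turned. With 50 kb on either side the 4 genes held 208 peaks in replicate 1 and 213 in replicate 2, and of these 130 (62.5%) and 128 (60.1%) overlapped a peak of the other library. Over all peaks the shares were 51% and 79.7%. Of the 208 and 213 peaks, 31 and 38 lay at starts of the members and 34 and 39 at starts of other genes. Nfix held 74 and 68 peaks, which is 3.69 and 3.39 per 10 kb, at percentiles 99.9 and 99.5 of all protein-coding genes. Nfic held 43 and 83, or 2.70 and 5.21 per 10 kb, at percentiles 99.4 and 99.9. The 2 members with the weaker promoters were thus among the most densely accessible loci of the tissue.

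Nfia and Nfib are long genes with fewer peaks per length than Nfic and Nfix, though above the median of all genes (0.594 and 0.377 per 10 kb). Nfia held 49 and 25 peaks, 1.10 and 0.560 per 10 kb, at percentiles 78.7 and 65.8, and Nfib held 42 and 37, 0.815 and 0.718 per 10 kb, at percentiles 64.6 and 75.3. Among the 1812 and 1304 genes whose region has between 0.5 and 2 times their length, they stood higher, at 95.7 and 91.0 for Nfia and at 88.0 and 97.2 for Nfib. Part of the density at Nfic and Nfix belongs to neighbours: 5 of the 6 shared peaks above a signal of 5 at Nfic and 3 of the 4 at Nfix lay at the starts of other genes. Those included Fzr1 (17.2 and 10.1) and Hmg20b (11.7 and 6.37) beside Nfic, and Calr (10.4 and 5.96) beside Nfix. Over the gene bodies alone the mean percentile was 96.3 for Nfic and 94.4 for Nfix, compared with 64.6 for Nfia and 68.5 for Nfib. Neither Nfia nor Nfib had a shared peak above 5 at another gene's start.

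**Figure D2:**
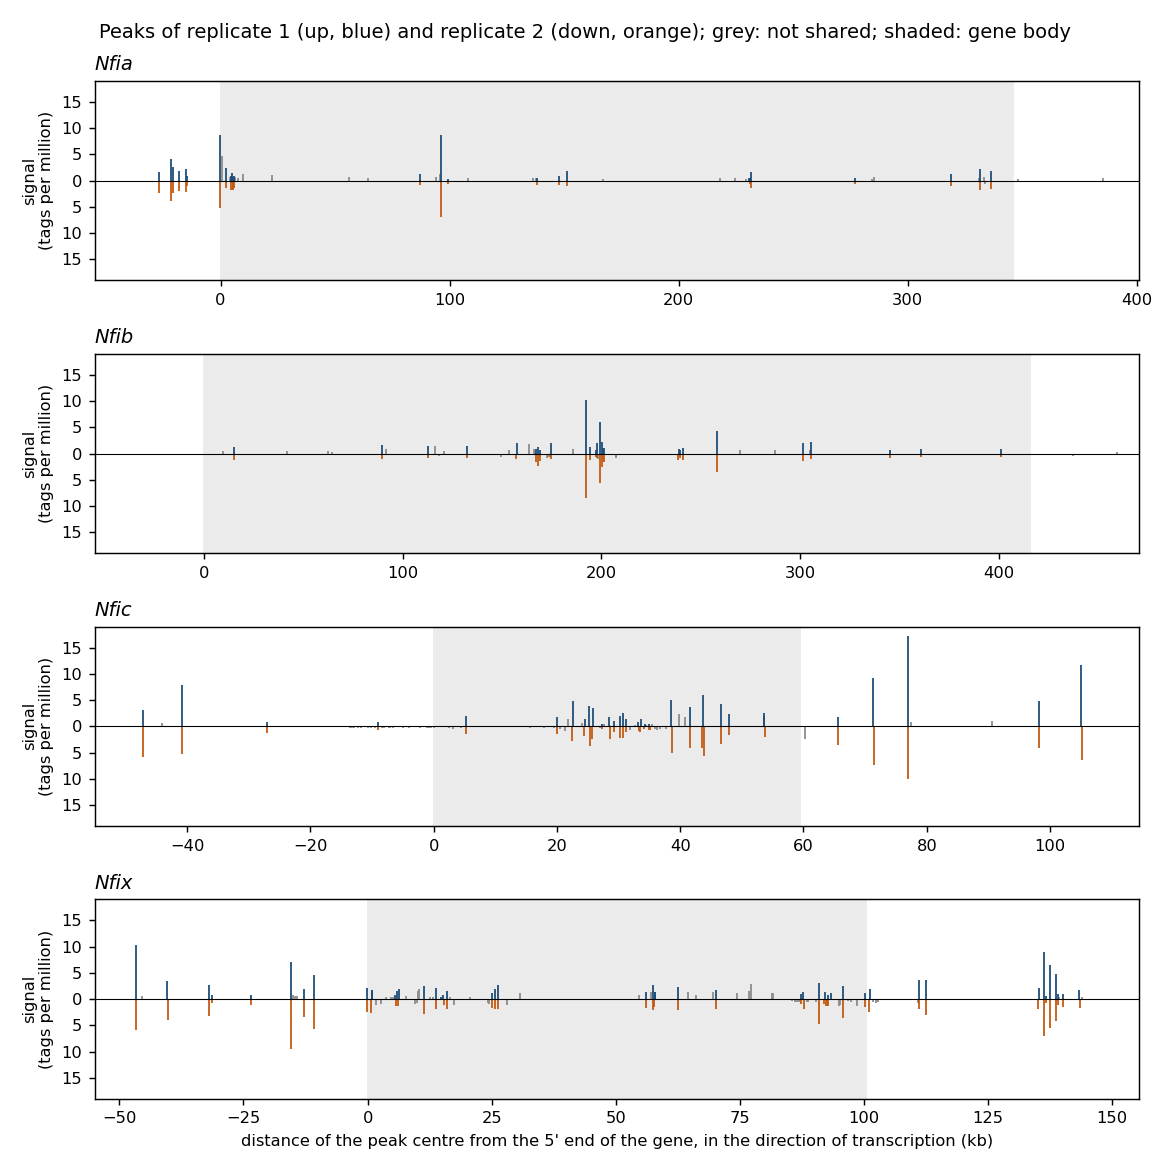
Peaks of replicate 1 (up) and replicate 2 (down) by distance of the peak centre from the 5′ end of each gene in kb, with signal in scaled tags; coloured lines are shared peaks, grey lines are peaks of 1 library, and the gene body is shaded. Nfia and Nfib each have 1 tall intronic peak, and peaks lie closer together at Nfic and Nfix.

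The strongest shared site of Nfib was no promoter of Nfib. It lay in an intron at chr4:82513201-82513440, 7542 bp from the nearest annotated start of the gene, within the span of the antisense gene Gm11266. Its signal was 10.2 in replicate 1 and 8.50 in replicate 2 (9.34 ± 1.18), above the promoter peak of the gene in both libraries and at percentile 99.3 and 99.1 of all peaks. It carried 7 and 6 footprints. The sequence is shown because this site exceeds every start peak of the family in mean signal, and capitals mark the 71 of 240 bases in footprints of both libraries. It holds 5 matches of the GC box GGGCGG, one of them touching a shared footprint, and a RUNX match (TGTGGT) that touches one too.
Nfib intron site: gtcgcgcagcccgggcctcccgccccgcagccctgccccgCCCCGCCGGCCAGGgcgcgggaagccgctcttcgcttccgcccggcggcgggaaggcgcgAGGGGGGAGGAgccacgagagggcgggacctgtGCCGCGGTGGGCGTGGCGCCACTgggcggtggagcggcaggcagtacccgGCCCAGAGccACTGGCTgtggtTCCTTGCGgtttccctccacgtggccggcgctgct

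Nfia had a counterpart 96307 bp into the gene, in an intron at chr4:97868941-97869140. The signal was 8.75 and 6.96 (7.86 ± 1.27), which is level with the start peak in replicate 1 (8.77) and above it in replicate 2 (5.22). Its 200 bases hold 2 NFI half-sites, TTGGCA read as TGCCAA on the strand shown, and both touch shared footprints. Footprints of both libraries held 79 of these bases (39.5%). This share was read only at a few of the strongest peaks of each member, so it gives no rank within the family.
Nfia intron site: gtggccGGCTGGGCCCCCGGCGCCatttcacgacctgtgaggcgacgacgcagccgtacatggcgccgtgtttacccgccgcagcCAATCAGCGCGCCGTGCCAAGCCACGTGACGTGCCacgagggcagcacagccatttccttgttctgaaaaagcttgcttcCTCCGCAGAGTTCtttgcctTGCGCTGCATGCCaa

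At Nfix the strongest shared site away from starts lay 15397 bp upstream of the gene at chr8:84815641-84815840, with 7.12 and 9.43 (8.27 ± 1.64). It exceeded every Nfix start peak in both libraries by far more than the libraries differed at those starts, and it lies in an untranslated exon of the neighbouring gene Dand5. A second upstream site, 10717 bp from the gene at chr8:84810961-84811160, had 4.59 and 5.78 (5.18 ± 0.839). Its sequence is shown for the GCGCCCCCT match of the CTCF core (AG, 2 bases of any kind, GGCGC, on either strand), which lay in footprints of both libraries.
Nfix upstream site: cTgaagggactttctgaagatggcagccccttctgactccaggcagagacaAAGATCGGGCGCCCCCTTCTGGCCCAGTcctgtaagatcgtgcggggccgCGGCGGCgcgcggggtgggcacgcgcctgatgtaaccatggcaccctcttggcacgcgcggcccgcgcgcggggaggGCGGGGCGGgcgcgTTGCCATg

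CTCF is the factor that anchors chromatin loops and bounds domains. In the 150 bp around the centre of each peak its core matched at 20 positions over the 4 regions, 11 of them in peaks of both libraries, and 7 were touched by footprints in both. Nfix had 3, at the upstream site and near the 3′ end of the gene at chr8:84704589 and 84709350. Nfia had 2, both upstream, at chr4:97745984 and 97751146, of which the latter peak had 4.05 and 3.87 (3.96 ± 0.124). The other 2 were at Nfic. Nfib had none. The share of peaks away from starts with the core was 5.59% and 6.62%, compared with 5.77% and 8.14% of all such peaks, so the family was not richer in it. Over all peaks, footprints of the same library touched 81.0% and 79.7% of CTCF core matches away from starts. At starts they touched 57.2% and 54.7%, so 7 of 11 is no high share.

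The highest shared site of Nfic away from starts was intronic, with 5.91 and 5.64 (5.77 ± 0.191) in a peak beginning at chr10:81411581. It exceeded every Nfic start peak in both libraries. In all 4 genes the strongest shared site away from starts had a mean signal above that of the strongest shared start peak, by 7.86 to 6.99 at Nfia, 9.34 to 5.81 at Nfib, 5.77 to 3.75 at Nfic and 8.27 to 2.28 at Nfix. The Nfia difference is smaller than the spread of its start peak. The same held for 21.2% of the 13724 protein-coding genes with a shared start peak, and for 57% of the 107 with at least 22 matched peaks in the region, the fewest of any member. A region with many peaks gives the sites away from starts more chances to be the highest, so 4 of 4 is read against the latter share.

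At 119 pairs of peaks matched between the libraries the log2 ratio of replicate 1 to replicate 2, centred on all 47291 pairs, had a median of 0.03 and ran from -1.06 to 1.21. Of these pairs 5 lay beyond 2-fold, all of them at Nfib, compared with 4.64% of all pairs. They were 3 sites higher in replicate 1 (at chr4:82400061, 82507861 and 82531019) and 2 higher in replicate 2 (at chr4:82536791 and 82537367). The 20 pairs at starts of the members had a median of -0.28, and those medians were negative in each gene, from -0.45 at Nfib to -0.22 at Nfic. Over the 19765 pairs at starts of protein-coding genes the median was -0.02. Whether the family's starts differ from these beyond error was not tested. The strongest start pair by mean signal stood at 0.75 in Nfia, 0.11 in Nfib, 0.04 in Nfic and -0.17 in Nfix. In each gene that is above the median of its start pairs, so the negative medians came from the weaker start peaks.

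Nfic was where the libraries parted most. Of its 83 peaks in replicate 2 only 33 were shared (39.8%), compared with 32 of 43 (74.4%) in replicate 1. A 36 kb window from chr10:81434001, chosen after its values were seen, held 46 peaks in replicate 2 and 3 in replicate 1. The 43 that replicate 1 lacked had signals of 0.0940 to 0.914 with a median of 0.282, on 11 to 107 tags, and 33 of them held no footprint. Only 1 of the 43 had a position with a deposited q-value under 0.05 in replicate 1. Genome-wide 4 loci had as many such peaks in 36 kb, up to 60, where the median was 1. Without that window the mean percentile of peak density at Nfic was 98.8 instead of 99.6. What set these weak peaks apart was not tested.

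**Figure D3:**
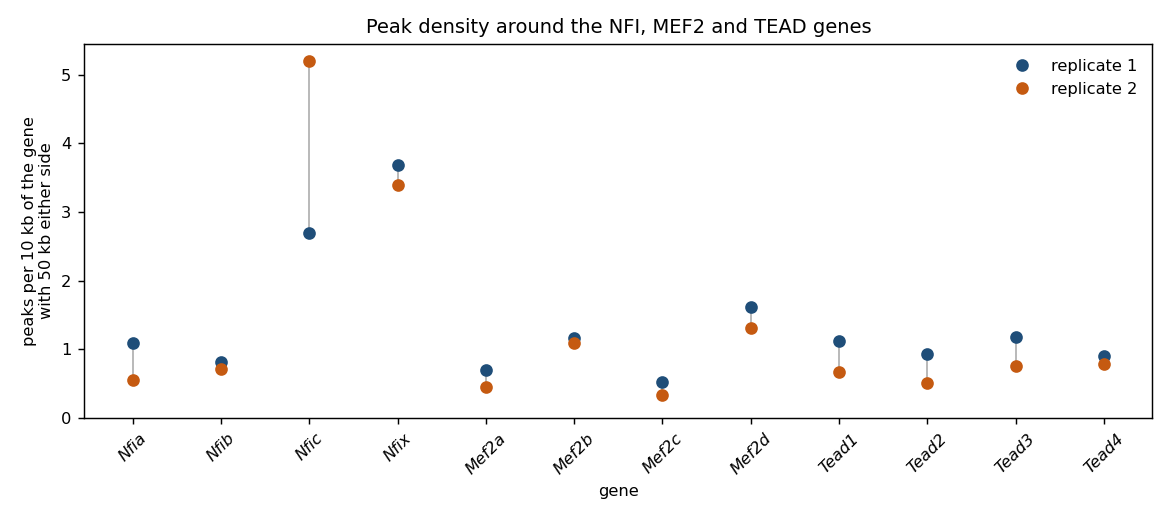
Peaks per 10 kb of gene with 50 kb either side, one point per library, for the 4 NFI genes and 8 genes of the MEF2 and TEAD families of muscle transcription factors. Nfic and Nfix lie above every other gene in both libraries, Nfia and Nfib lie among them, and the libraries differ most at Nfic.

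Set beside other transcription factor families of muscle, the NFI genes had middle promoter signals, and Nfic and Nfix had the most peaks per length. The median promoter signal was 4.78 for NFI, compared with 7.10 for MEF2 and 2.40 for TEAD, with ranges that overlap. The median density was 2.19 peaks per 10 kb for NFI, from 0.766 to 3.95, compared with 0.875 for TEAD and 0.857 for MEF2. Nfia, at 0.829, and Nfib, at 0.766, lay below both of those medians. By shared peaks NFI genes had 25 to 47, MEF2 genes 9 to 14 and TEAD genes 6 to 22, over regions of unlike length. Per 10 kb the families overlapped by all peaks, with 0.437 to 1.46 for MEF2 and 0.721 to 0.965 for TEAD. For shared peaks per 10 kb, the mean percentile among all protein-coding genes was 70.2 for Nfia, 67.9 for Nfib, 99.6 for Nfic and 99.8 for Nfix. Longer genes hold more peaks: the median length was 223 kb for NFI, 85.7 kb for MEF2 and 47.8 kb for TEAD. With 4 genes a family these are descriptions with no test.

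Taking the percentiles of promoter signal and of peak density in both libraries together, over all protein-coding genes, the genes nearest to each member were Srgap2 and Lbr for Nfia, Fam104a and Arhgap33 for Nfib, Tmem8b and Hist1h3e for Nfic, and Spef1 and Hoxd8 for Nfix. Their distances were 0.944 to 4.21 percentile points over these 4 measures. No member was among the 2 nearest genes of another.

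The regions held 650 footprints in replicate 1 and 578 in replicate 2, of which 88.3% and 88.8% lay in peaks of the same library. Of them 39.2% and 45.8% overlapped a footprint of the other library, compared with 36.0% and 52.2% of all footprints. Within peaks of both libraries the shares were 53.5% and 57.0%, compared with 55.8% and 62.5%. Once restricted to peaks of both libraries, the family's share thus lay slightly below that of all footprints in each library. Nfic had the highest shares within such peaks, 60.8% and 66.7%, and Nfia the lowest in replicate 1, at 45.7%.

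The sites that NFI proteins bind were then looked for, first in all peaks. The full palindrome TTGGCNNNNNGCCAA was rare. It occurred in the central 150 bp of 0.104% and 0.0838% of peaks away from starts (68 and 29 matches) and of 0.0657% and 0.0222% of peaks at starts in replicates 1 and 2. Away from starts 76.5% and 72.4% of the matches were touched by a footprint. Footprints held 64.4% and 51.3% of their bases, against 13.5% and 12.02% of all bases in these windows. The matches numbered more with 5 bases between the half-sites than with 3, 4, 6 or 7, where 9 to 31 were found per library and 8.93% to 36.3% of the bases lay in footprints. At starts, on 21 and 6 matches, the full palindrome had 49.8% and 33.3% of its bases in footprints, and 6 bases between the half-sites gave 46.9% and 18.8% on 8 and 10 matches. With 7 bases it was 44.7% and 26.1%, and with 4 bases 20.8% and 35.7%, so at starts the spacings were not separated in either library.

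A shorter form without the outer bases, TGGCNNNNNGCCA, was chosen after these values were seen. It matched at 1868 and 1022 positions in peaks away from starts, in 2.80% and 2.91% of these peaks. Footprints held 62.5% and 57.2% of their bases. With 2, 3, 4, 6, 7 or 8 bases between the same half-sites the share of peaks was 0.771% to 1.03% and the share of bases in footprints 14.9% to 25%. The half-sites are the same in all of these, and only the spacing of the NFI dimer stood apart, in both libraries. At the central base 65.3% and 59.2% of the core sites lay in a footprint, and 30 bp to either side of it 3.80% and 5.19% did in replicate 1 and 3.91% and 5.68% in replicate 2. Peaks at starts gave 68.5% and 64.7% of core site bases in footprints, against 18.3% and 16.8% of all bases. Binding was not measured, so these footprints do not tell whether an NFI protein was bound. They also do not tell which of the 4 it would be, since all share the site.

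**Figure D4:**
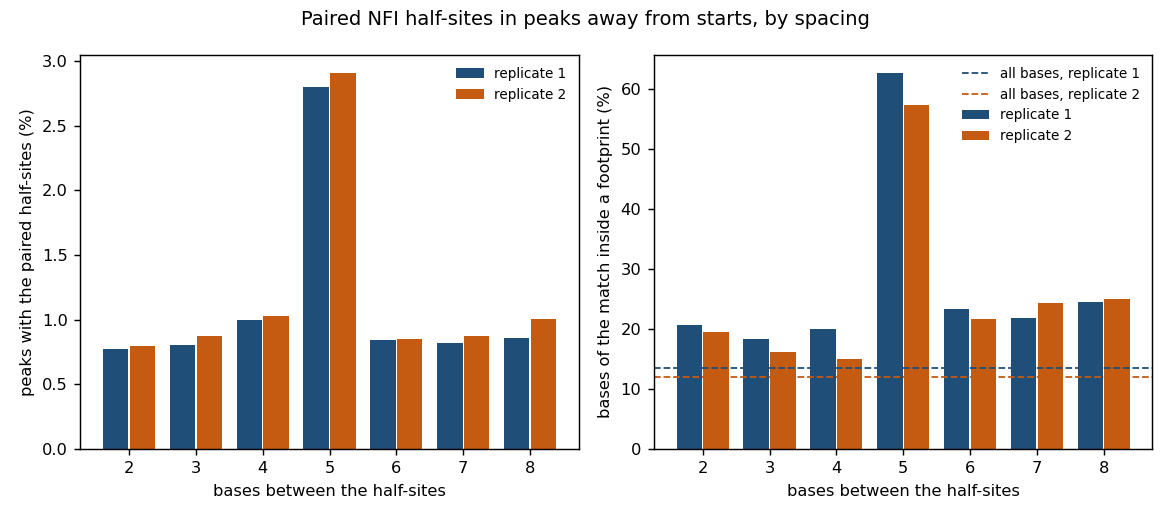
Peaks away from starts that hold a pair of facing NFI half-sites (left, percent of peaks) and the bases of these matches that lie in footprints (right, percent), by the number of bases between the half-sites, for both libraries; dashed lines are the share over all bases. Both bars stand out at 5 bases, at 2.80% and 2.91% of peaks and 62.5% and 57.2% of bases.

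**Figure D5:**
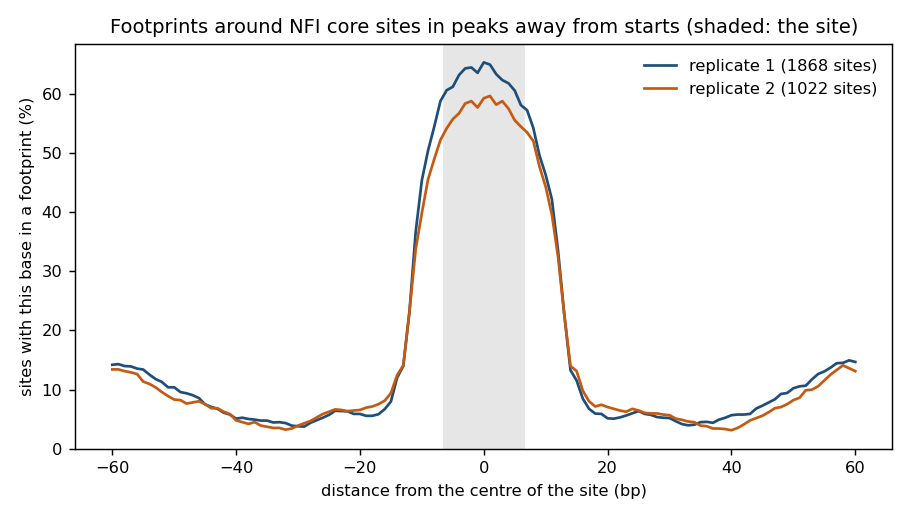
Percent of the 1868 (replicate 1) and 1022 (replicate 2) core sites in peaks away from starts at which a base lies in a footprint, by distance in bp from the centre of the site, which is shaded. Both libraries rise to 65.3% and 59.2% at the centre and stand between 3.80% and 5.68% at 30 bp on either side.

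In the peaks of the 4 NFI genes themselves the full palindrome did not occur, in 0 of 208 and 0 of 213 peaks, to be read against the low background shares above. The core site did, in 4 peaks of replicate 1 and 3 of replicate 2, all intronic and away from starts, which is 2.80% and 2.21% of the family's peaks there and close to the 2.80% and 2.91% of all peaks. Every one of these 7 matches was touched by a footprint of its own library, where 74.3% and 70.5% of all core sites away from starts were. Half-sites 7 bases apart were in as many of the family's peaks away from starts, 4 and 3, and footprints touched 3 of 5 and 2 of 4 of those matches, so in these few peaks the count alone does not set the dimer spacing apart. The 7 core site matches fall on 4 positions, 2 in Nfib, 1 in Nfic and 1 in Nfix, and none in Nfia. The reference sequence of each is shown with 24 bases on either side, the site in capitals, because these are the places where the family's own genes carry the dimer spacing. The mice are a hybrid, and only the reference allele was read.
Nfib chr4:82690399-82690459: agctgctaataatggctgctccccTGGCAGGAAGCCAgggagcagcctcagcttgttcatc
Nfib chr4:82418416-82418476: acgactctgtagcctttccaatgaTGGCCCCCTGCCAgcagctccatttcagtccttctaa
Nfic chr10:81435632-81435692: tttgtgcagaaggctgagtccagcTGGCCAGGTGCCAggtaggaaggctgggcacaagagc
Nfix chr8:84744163-84744223: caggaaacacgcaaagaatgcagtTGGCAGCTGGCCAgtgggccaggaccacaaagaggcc

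The first Nfib site lay in a peak of 1.30 and 1.17 and was spanned by footprints in both libraries, from chr4:82690418 to 82690441 in replicate 1 and from 82690417 to 82690448 in replicate 2. The second lay in a peak of replicate 1 only, of 0.633. The Nfic site, in a peak of 1.84 and 1.46, was spanned from chr10:81435650 to 81435675 and from 81435649 to 81435673. At Nfix the peak had 1.39 and 1.74 and the footprints ran from chr8:84744179 to 84744205 and from 84744182 to 84744205. So 3 of the 4 sites had a footprint over the whole site in both libraries, with edges that agreed within 7 bases. Of all core sites away from starts, a footprint covered 43.0% in replicate 1 and 35.9% in replicate 2. These 3 sites are too few to set apart from those shares. The peaks of the 4 sites were of middling strength.

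The Nfic and Nfix sites overlapped an E-box, CAGCTG, the sequence that MyoD and myogenin bind as myogenic basic helix-loop-helix factors. In Nfix it lies wholly within the NFI site, at chr8:84744190-84744195, and in Nfic it covers the first bases, at chr10:81435652-81435657. Over the 4 regions 12 E-box matches lay in peaks of both libraries, and these 2 were the only ones touched by a footprint in both. Over all peaks away from starts, footprints of the same library touched 23.2% and 22.1% of E-box matches. Away from starts an E-box was in 15.4% and 15.4% of the family's peaks, compared with 20.9% and 18.8% of all such peaks. The footprints over these 2 matches cannot be assigned to one motif or the other, since the bases are shared.

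NFI half-sites were more common. They were in 21.7% and 16.9% of the family's peaks away from starts, compared with 17.6% and 13.8% of all, and in 15.4% and 10.4% of its peaks at starts, compared with 8.48% and 6.61%. Of 23 matches in peaks of both libraries 7 were footprinted in both, 3 at Nfia, 2 at Nfib and 1 each at Nfic and Nfix. Over all peaks, footprints of the same library touched 38.9% and 29.1% of half-sites away from starts and 38.1% and 27.2% at starts. Of other motifs, TEAD (GGAATG) was in 4.90% and 3.68% of peaks away from starts, compared with 10.3% and 9.17%, and AP-1 (TGANTCA) in 5.59% and 0.735%, compared with 8.30% and 6.02%. The GC box was in 14.0% and 14.7%, compared with 7.21% and 9.19%, and SP/KLF matches in 23.1% and 28.7%, compared with 15.5% and 16.7%. MEF2 (CTANNNNTAG) was in 2.10% and 2.21%, compared with 2.27% and 1.61%. A MEF2 match upstream of Nfix at chr8:84813273 was the only one of its kind footprinted in both libraries, in a peak of 1.96 and 3.43. A CRE match (TGACGTCA), the site of CREB factors, was so at Nfib at chr4:82615883, and another lay at the start of Ier2 beside Nfix.

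The genes placed upstream, beside or downstream of Nfix in muscle were read at their promoters, and 13 of 15 had a peak in both libraries, where 63% of protein-coding genes did. Of those upstream, Junb and Pax7, which activate Nfix in fetal muscle cells, had 6.53 and 5.97 (6.25 ± 0.394) and 0.686 and 0.931 (0.809 ± 0.173). Rock1 and Rhoa, kinase and switch of the pathway that holds Nfix down, had 9.93 ± 2.45 and 7.64 ± 2.09, and the kinase gene Mapk3 had 3.80 ± 0.376. Pax7, the marker of satellite cells, was the lowest of them, at percentile 11.6 in both libraries.

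Of the partners, the corepressor gene Ski had 15.1 and 10.9, at percentiles 99.8 and 99.3, and Mef2a, a factor of the myogenic programme, had 8.85 and 7.37, at 90.5 and 91.8. Prkcq, a kinase that acts on Mef2a, had 1.64 and 2.27. Of the targets, Ckm had 4.06 and 3.92 (3.99 ± 0.0959), Nfatc4 3.14 and 2.96 and Eno3 2.85 and 2.72 (2.78 ± 0.0946). Sox6, which acts with Nfix on slow myosin, had 2.03 and 2.07. At the slow myosin gene Myh7 no promoter peak was called in replicate 1 or 2, and myostatin, Mstn, had one in replicate 1 only, of 0.343. Ckm and Eno3, which Nfix activates, stood at percentiles 54.98 and 57.5 and 41.9 and 39.7, and Nfatc4, which it represses, stood at 45.3 and 42.9. Over these 15 genes with 50 kb either side, 260 and 213 peaks held 4 and 3 NFI core sites, near Rhoa, Mef2a, Ski and Mstn in replicate 1 and near the latter 3 in replicate 2. That is 1.54 and 1.41 sites per 100 peaks, compared with 2.31 and 2.08 over all peaks. The mix of peaks at and away from starts was not matched here. Of all peaks, 1.21% and 0.954% of those at starts held a core site, and 2.80% and 2.91% of those away from starts. Near the 15 genes footprints touched 3 and 1 of the sites, and only the one near Ski in both libraries, where 74.9% and 71.6% of all core sites were touched. No core site lay in a peak near any other of the 15 genes, Ckm, Eno3 and Myh7 among them. Those 3 had 20, 20 and 7 peaks in replicate 1, too few at 2.31 sites per 100 peaks to read an absence.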

How the data were processed

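DNase-seq was measured in 2 libraries of 1 group. For each, the authors deposited 2 peak lists with a signal per peak, footprints (positions only) and per-position q-values below 0.05, on mm10 per the labels, each made from its own library. The aligner and the callers: not given in the sources used here. Every deposited signal was a whole multiple of a step per library (within 0.1 tag), so it was read as tags per 1000000 tags. The longer peak list was used.

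Positions were compared with GENCODE M21 on GRCm38, the assembly of mm10. A promoter peak overlapped 1 kb either side of any start, regions took 50 kb either side, and overlap needed 1 bp. Peaks at a start include those of any annotated gene. Both strands of the central 150 bp were searched for motifs, in the RefSeq GRCm38 sequence. Python 3.11.15, pandas 2.3.3, numpy 2.4.6 and pysam 0.24.0 were used, and the functions were tested on simulated data. No test across genes was run, since there is 1 group. The members and lists were chosen with earlier results of these data known. Named were the members, 15 genes tied to Nfix, genes of related families, neighbours with a start within 50 kb, the strongest start peak and the 3 strongest other shared peaks per member, peaks with NFI sites, and the 2 nearest genes by percentiles. The core site, CTCF core, RefSeq starts, shares for peaks away from starts and the window at Nfic were added after the data were seen. Alternatives were other windows, stricter lists and single libraries. Some genes of these lists are not reported here.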

Additional observations from a re-analysis of the deposited data

How the results depend on the processing

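The count of members with a promoter peak in both libraries stayed at 4 in every setting but one: at the annotated 5′ end alone it was 2, Nfia and Nfix, since the 5′ ends of Nfib and Nfic were not accessible in both. The 208 to 213 peaks per library (mean 210.5) became 130.5 with the stronger 50% of the peaks. The median density of the family was 2.44 per 10 kb with 20 kb either side and 1.60 with the shorter peak list. The share of peaks away from starts with an NFI half-site was 19.3% as a mean of the libraries and 27.1% in a window of 300 bp. The mean share of full NFI sites touched by a footprint, 74.4%, was 23.8%, 22.9%, 49.3% and 28.4% with spacers of 3, 4, 6 and 7 bases, 27.3% where a footprint had to cover the whole site, and 47.6% in peaks at starts, on at most 21 matches per library.

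With 1 library left out, values ran from 26 to 28 starts, from 208 to 213 peaks, from 13 to 14 of the genes tied to Nfix, from 578 to 650 footprints, from 39.2% to 45.8% shared footprints, from 16.9% to 21.7% of peaks with a half-site and from 72.4% to 76.5% of full sites touched. The mean promoter signal within 2500 bp was 4.28 at Nfic and 3.88 at Nfix, and the latter was 2.35 at the 5′ end alone. In replicate 2 alone Nfix was the higher within 2500 bp, with 4.73 compared with 3.71 at Nfic. No paired analysis was possible because the libraries form 1 group. With 2 libraries no test of a difference could be made. Peaks of the 4 regions that the other library lacked were weaker, with a median signal of 0.621 and 0.410, compared with 1.20 and 1.05 for all peaks of these regions.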
